A study of Mus musculus with 11 samples.

Results

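The genes of prostanoid synthesis and reception were examined in corneas under desiccating stress. They are the 10 genes of the NanoString mouse Inflammation panel, which counts 248 transcripts with one probe each, that encode cytosolic phospholipase A2 (Pla2g4a, protein PLA2G4A), both cyclooxygenases (Ptgs1 and Ptgs2, proteins PTGS1 and PTGS2) and the receptors for prostaglandin E2 (Ptger1 to Ptger4), prostaglandin F2α (Ptgfr), prostacyclin (Ptgir) and thromboxane (Tbxa2r). They were chosen by name, and all 10 were measured in all 11 samples. Female C57BL/6J mice drank scopolamine, which blocks tear secretion, and were kept in a dry draft for 5 days. During this time they received eye drops of vehicle (phosphate-buffered saline, 3 samples), of pan at 10 µM (4 samples) or of C1 at 10 µM (4 samples). The compounds are synthetic agonists of neurotrophin receptors: pan acts on the Trk family as a whole and C1 on TrkC. All groups were under stress, so no comparison with unstressed eyes was made. One age label read 3 months for every sample, while a second read 22 to 24 months for all C1 samples and pan replicate 4 and 2 to 3 months for the remaining samples. The study's methods give a single age range in weeks for all mice, which goes against the older label.

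Cytosolic phospholipase A2 frees arachidonic acid from membranes, and the cyclooxygenases turn it into the precursor from which prostaglandins, prostacyclin and thromboxane are made. Ptgs1 encodes the enzyme present in many resting tissues, and Ptgs2 the one that cytokines and injury induce. Prostaglandin E2 acts through receptors that differ in signalling: EP2 and EP4 raise cyclic AMP, EP3 mostly lowers it, and EP1 raises intracellular calcium. In the cornea these lipids are known as mediators of inflammation, pain and epithelial repair.

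The total probe count over the panel was 91955 to 133098 in vehicle, 64156 to 646446 in pan and 165828 to 525997 in C1, so that every C1 sample was counted more deeply than every vehicle sample. The mean level of the 62 panel genes with the lowest values, the 10 members left out, taken here as background, was 6.85 to 11.04 normalized counts in vehicle, 5.05 to 6.14 in pan and 5.66 to 10.1 in C1. The labels give corneal epithelium as the cells and cornea as the tissue, and the panel holds no corneal keratin gene against which this could be checked. In RNA from a whole tissue layer, fewer cells of a type and less RNA per cell cannot be told apart. The study calls the samples biological replicates and kept those that passed its quality control. The sources used here do not say whether a sample was 1 animal or a pool, and p-values measure only the spread between the samples kept.

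The levels of the genes set 3 of them apart. Pla2g4a, Ptgs1 and Ptger4 were above the background limit, the mean plus 2 SD of the background genes in the same sample, in 11 of 11 samples. Ptger3 was above it in 9 samples, Ptger1 and Ptgfr in 8, Ptgir in 6, Ptgs2 in 4 and Ptger2 in 1. Tbxa2r, the thromboxane receptor gene, was above it in 0 of 11 samples. In order of mean log2 level on the panel, Pla2g4a ranked 49, Ptgs1 72 and Ptger4 116 of 248, and the other members ranked from 136 (Ptger1) to 240 (Tbxa2r), although probes can differ in efficiency and this order of probe signals is not an order of transcript numbers.

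**Figure D1:**
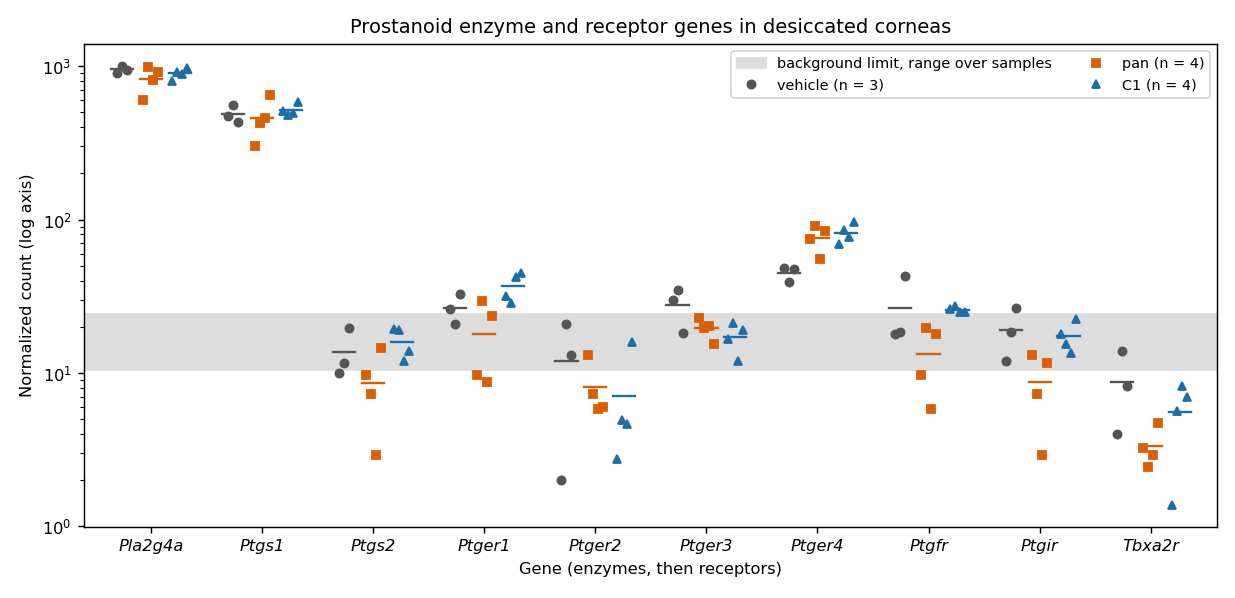
Normalized count (log axis) of each gene in each of the 11 samples, with vehicle as circles, pan as squares, C1 as triangles and group means as lines. The grey band spans the background limits of the samples, and only Pla2g4a, Ptgs1 and Ptger4 lie above it in every sample.

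The start regions of Ptger4 and Ptgs2 are shown because Ptger4 is the gene on which the comparisons with vehicle turn and Ptgs2 is the textbook inducible gene of the pathway. The sequences are those of RefSeq (GRCm38.p6), whose promoter table matched 9 of the 10 genes and had no entry for Ptger1. Each is the 250 bases before the annotated start, 5′ to 3′ on the gene's own strand. The Ptger4 window is chr15:5244188-5244437 on the − strand and the Ptgs2 window is chr1:150099781-150100030 on the + strand. Capitals mark matches to any of 6 motifs searched on both strands.
Ptger4: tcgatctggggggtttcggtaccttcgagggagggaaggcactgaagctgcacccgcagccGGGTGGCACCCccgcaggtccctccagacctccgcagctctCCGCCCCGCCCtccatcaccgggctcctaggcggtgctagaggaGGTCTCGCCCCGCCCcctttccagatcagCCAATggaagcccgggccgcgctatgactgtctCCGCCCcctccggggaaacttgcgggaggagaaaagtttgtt
Ptgs2: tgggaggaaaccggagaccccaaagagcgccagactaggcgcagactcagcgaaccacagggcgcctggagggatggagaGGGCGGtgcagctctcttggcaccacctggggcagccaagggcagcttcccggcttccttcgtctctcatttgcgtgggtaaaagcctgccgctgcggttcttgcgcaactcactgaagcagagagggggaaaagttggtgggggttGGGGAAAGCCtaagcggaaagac

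The motifs were the CCAAT box (CCAAT), the GC box (GGGCGG), the E-box (CACGTG), the core of the cyclic AMP response element (TGACGT), the TATA box (TATAAA) and a loose form of the NF-kB motif (GGG and CC with any 5 bases between them). The Ptger4 window held 1 CCAAT box, 4 GC boxes and 3 loose NF-kB matches. Of these, 1 GC box and 1 NF-kB match overlapped each other, and other matches of the same motif overlapped or adjoined. The Ptgs2 window held 1 GC box and 1 loose NF-kB match. Among 32851 promoter windows of the same length, a CCAAT box was found in 33.8%, a GC box in 32.7%, an E-box in 6.02%, the cyclic AMP core in 6.47%, a TATA box in 12.4% and the loose NF-kB form in 45.8%, so the letters found here are common ones. The GC content was 66.8% for Ptger4 and 61.6% for Ptgs2, against a median of 52.4% over all windows.

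The enzymes that start the pathway were well measured and had similar levels in the 3 groups. The Pla2g4a normalized count was 906.9, 1004.9 and 952.2 in vehicle replicates 1 to 3, 600.5, 995.6, 811.4 and 917.3 in pan replicates 1 to 4, and 803.4, 915.7, 895.7 and 979.8 in C1 replicates 1 to 4. Pan replicate 1 was the lowest of all, and both agonist groups overlapped vehicle. The Ptgs1 normalized count was 476.5, 560.1 and 430.9 in vehicle, 301.9, 424.6, 460.7 and 650.1 in pan, and 507.6, 481.7, 493.3 and 585.8 in C1. The pan group held both the lowest and the highest Ptgs1 value. For both genes the spread within pan was wider than within the other groups: the SD of the log2 level was 0.32 in pan against 0.07 in vehicle and 0.12 in C1 for Pla2g4a, and 0.45 against 0.19 and 0.13 for Ptgs1. Counting error alone gave 0.08 and 0.11 in pan for these genes.

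Ptgs2 was near background in most samples. Its normalized count was 10.0, 11.5 and 19.7 in vehicle, 9.7, 7.3, 2.9 and 14.5 in pan, and 19.3, 18.9, 11.9 and 13.8 in C1. In pan, 3 of the 4 values rest on 1 to 3 probe counts. Those 3 lay below every vehicle sample, and C1 overlapped vehicle.

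Among the prostaglandin E2 receptors, Ptger4 was the one measured above background throughout and the one whose agonist samples stood above vehicle. Its normalized count was 48.0, 39.2 and 47.7 in vehicle, 74.7, 90.3, 55.1 and 84.6 in pan, and 68.8, 84.8, 76.9 and 95.9 in C1. All 8 agonist samples were above all 3 vehicle samples, and pan replicate 3 lay closest to them. The group means were 44.97 ± 5.02 in vehicle (SD, n = 3), 76.2 ± 15.48 in pan (SD, n = 4) and 81.6 ± 11.6 in C1 (SD, n = 4). These levels rest on 24, 17 and 29 probe counts in vehicle, 23, 37, 19 and 269 in pan, and 50, 121, 149 and 222 in C1. With so few counts, the 95% exact Poisson interval of pan replicate 3 ran from 33.1 to 86.0 normalized counts and that of vehicle replicate 2 from 22.8 to 62.7; these intervals cover counting error only. The SD of the log2 level among vehicle samples, 0.17, was below the 0.31 that counting alone gives, while in pan (0.32 against 0.26) and C1 (0.20 against 0.14) it was above it.

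**Figure D2:**
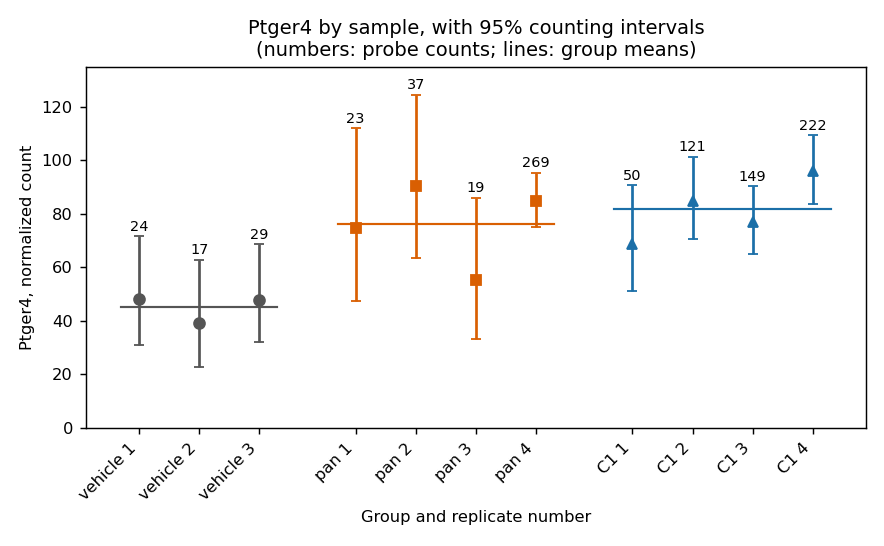
Ptger4 normalized count in each sample, with 95% exact Poisson intervals as bars, the probe count printed above each and group means as lines. The 8 agonist samples (55.1 to 95.9) lie above the 3 vehicle samples (39.2 to 48.0), and the intervals of the samples with few counts overlap.

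The other E2 receptor genes were lower. Ptger1, for the calcium-linked EP1, had normalized counts of 26.03, 20.7 and 32.9 in vehicle, 9.7, 29.3, 8.7 and 23.6 in pan, and 31.6, 28.7, 42.3 and 44.9 in C1. The pan samples thus included the lowest values and the C1 samples the highest, with overlap of both with vehicle. Ptger3, for the receptor EP3, had 30.0, 34.6 and 18.1 in vehicle, 22.7, 19.5, 20.3 and 15.4 in pan, and 16.5, 21.0, 11.9 and 19.0 in C1. Vehicle replicate 3 fell within the range of the agonist samples. Ptger2, for EP2, ranged from 2.0 to 20.7 in vehicle, 5.8 to 13.0 in pan and 2.8 to 16.0 in C1, on 1 to 37 probe counts, and 1 of 11 samples was above the background limit.

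The receptors for the other prostanoids were also low on the panel. Ptgfr, for the prostaglandin F2α receptor, had normalized counts of 18.0, 18.4 and 42.8 in vehicle, 9.7, 19.5, 5.8 and 17.9 in pan, and 26.1, 27.3, 24.8 and 25.1 in C1. The C1 values, each above the background limit of its sample, were closely spaced (SD of the log2 level 0.06, below the 0.25 that counting alone gives) and all lay above the pan values. Ptgir, for the prostacyclin receptor, had 12.0, 18.4 and 26.3 in vehicle, 13.0, 7.3, 2.9 and 11.6 in pan, and 17.9, 15.4, 13.4 and 22.5 in C1. Again every C1 value exceeded every pan value, the closest being 13.4 and 13.0. Tbxa2r ranged from 4.0 to 13.8 in vehicle, 2.4 to 4.7 in pan and 1.4 to 8.3 in C1.

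The first comparison asked whether pan drops changed these genes in the stressed cornea. Ptger4 was 1.67-fold higher in pan, with a log2 fold change of 0.74 (SE 0.25, 95% interval 0.16 to 1.32), and did not pass the test, with a limma adjusted p of 0.239. The other 9 genes had log2 fold changes from −1.26 (Ptgir) to −0.11 (Ptger2). Pla2g4a differed by −0.22 (SE 0.24, adjusted p = 0.774 by limma) and Ptgs1 by −0.14 (SE 0.30, adjusted p = 0.915 by limma). By limma with Benjamini-Hochberg adjustment over 248 genes, 0 of the 10 members were called at an adjusted p of 0.05, where 2.02% of the panel was called. At an unadjusted p of 0.05, Ptger4 was on the higher side, where 2.42% of the panel fell, and Tbxa2r on the lower side (−1.25, SE 0.44, adjusted p = 0.245 by limma), where 10.1% of the panel fell. Ptger4 was also the only member whose pan and vehicle samples did not overlap, with 2.42% of the panel not overlapping on the higher side and 8.47% on the lower. Its exact two-sided permutation p was 0.0571, the smallest that 4 against 3 samples allow.

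The 7 members with a mean log2 level under 5 were all below 0 in pan against vehicle, with a median of −0.83. Panel genes of that level did likewise: 94 of 117 were below 0, with a median of −0.64, while the 131 genes above that level had a median of −0.07. Background genes averaged 5.05 to 6.14 normalized counts in pan and 6.85 to 11.04 in vehicle. After subtraction of the background mean of each sample, the difference was −0.35 for Ptgs2, −0.87 for Ptger1 and −1.44 for Ptgfr. Before it, these were −0.83, −0.75 and −1.03. Over all settings other than leaving out a sample, Ptgir ran from −1.71 to −0.13 and Tbxa2r from −1.44 to −0.46. The part of this background in the values of these genes was not tested.

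The second comparison asked the same of C1. Ptger4 was 1.81-fold higher in C1, with a log2 fold change of 0.85 (SE 0.16, 95% interval 0.47 to 1.24). It had the smallest p of all 248 genes and a limma adjusted p of 0.211. Pla2g4a (−0.09, SE 0.13, adjusted p = 0.842 by limma) and Ptgs1 (0.08, SE 0.15, adjusted p = 0.860 by limma) lay near 0, and the interval for Pla2g4a, −0.39 to 0.21, bounds how far it could have moved. Ptger3 differed by −0.67 (SE 0.29) and Ptger1 by 0.48 (SE 0.24), with limma adjusted p of 0.452 and 0.469. Of the 10 members, 0 were called by limma at an adjusted p of 0.05, as were 0% of all genes. At an unadjusted p of 0.05 Ptger4 was the only member, on the higher side, where 5.24% of the panel fell, as did 5.24% on the lower. Ptger4 was likewise the only member without overlap between the groups, as were 6.05% of the panel on the higher side and 4.03% on the lower, with an exact two-sided permutation p of 0.0571, again the smallest possible. When only the 131 genes with a mean log2 level of at least 5 were tested, the limma adjusted p of Ptger4 was 0.0372. Because the age range label and the depth of counting both changed with the C1 group, their part in its difference from vehicle cannot be told apart from the drops. With the age range label as a covariate, which rests on pan replicate 4, the log2 fold change of Ptger4 was 0.62 (limma adjusted p = 0.807), and with the total count as a covariate it was 0.67 (0.478).

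**Figure D3:**
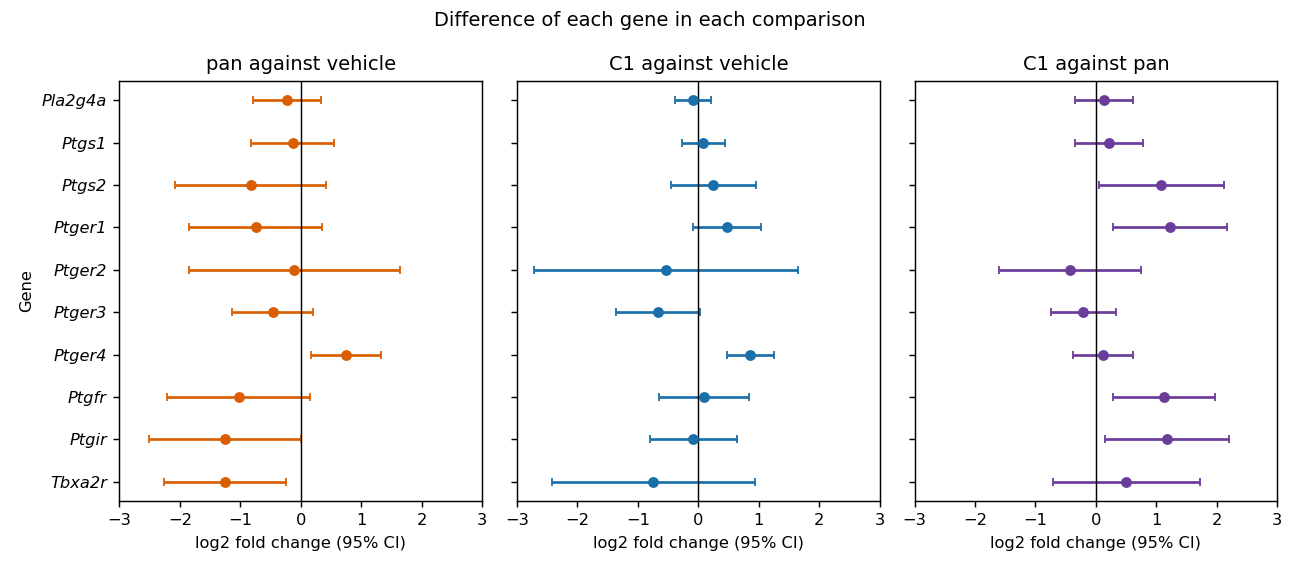
log2 fold change (points) with 95% intervals (bars) of each gene in pan against vehicle, C1 against vehicle and C1 against pan. Ptger4 lies at 0.74 and 0.85 in the comparisons with vehicle and at 0.11 between the agonists, while most genes near background have wide intervals.

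Both comparisons share the 3 vehicle samples, so the similar Ptger4 values in them are not independent of each other. With the 8 agonist samples as one group, the log2 fold change of Ptger4 was 0.80 (SE 0.19, fold 1.74), with a limma adjusted p of 0.0713. With 1 sample left out at a time it was 0.70 to 0.87, with limma adjusted p from 0.0396 to 0.402. The adjusted p was under 0.05 only without pan replicate 3, the agonist sample closest to vehicle. The full comparison gave Ptger4 the fourth smallest p of the panel, and the exact two-sided permutation p was 0.0121, the smallest that 8 against 3 samples allow. Of the 10 members 0 were called by limma, where 0.806% of the panel was called, and at an unadjusted p of 0.05 Ptger4 was on the higher side (3.23% of the panel) and Ptger3 on the lower (6.45%). Ptger4 alone did not overlap vehicle, as 1.61% of the panel did not on the higher side and 2.02% on the lower. Ptger3 differed by −0.56 (SE 0.24, adjusted p = 0.406 by limma), with 3 of 8 agonist samples below all vehicle samples. Within the samples labelled 2 to 3 months, which hold vehicle and pan replicates 1 to 3, Ptger4 differed by 0.68 (SE 0.27, limma adjusted p = 0.288). Among those labelled 22 to 24 months, which have no vehicle sample, Ptger4 was at 84.6 in pan replicate 4 and 68.8 to 95.9 in C1.

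Ptger4 was also set against the enzymes of its own pathway, a ratio chosen after its values were seen. The log2 ratio of Ptger4 to the mean of Pla2g4a and Ptgs1 within a sample ran from −4.26 to −3.75 in vehicle, −3.47 to −2.51 in pan and −3.21 to −2.97 in C1. It was higher than in vehicle by 0.92 in pan and by 0.86 in C1, with an exact permutation p of 0.0571 in each case. Since Pla2g4a and Ptgs1 differed little between the groups, the ratio restates the Ptger4 difference and adds no independent support. It shows only how that difference reads without the housekeeping scaling.

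The third comparison set the agonists, given at the same dose and time, against each other. For Ptger4 the difference, C1 against pan, was 0.11 (SE 0.22, limma adjusted p = 0.776), with a 95% interval from −0.38 to 0.61, so differences of up to about that size in either direction were not excluded by these samples. The intervals were −0.34 to 0.61 for Pla2g4a and −0.34 to 0.78 for Ptgs1. The 4 members with the smallest p all had a mean log2 level under 5 and were higher in C1: Ptger1 by 1.22 (SE 0.42), Ptgir by 1.17 (SE 0.45), Ptgfr by 1.12 (SE 0.37) and Ptgs2 by 1.08 (SE 0.46). With 1 sample left out, these ran from 0.94 to 1.53, 0.72 to 1.44, 0.78 to 1.36 and 0.63 to 1.40. The limma adjusted p with all samples were 0.256, 0.277, 0.256 and 0.312. Thus 0 of 10 members were called by limma, where 0.403% of the panel was called, and 4 were higher at an unadjusted p of 0.05, where 13.7% of the panel was, and 0 lower, where 1.61% was. Ptgfr and Ptgir did not overlap between the agonists, as 7.66% of the panel did not on the higher side and 0.403% on the lower, and each had an exact two-sided permutation p of 0.0286, the smallest that 4 against 4 samples allow.

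Panel genes at the same low level were mostly higher in C1 as well. The 7 low members had a median of 1.08, and all 117 genes with a mean log2 level under 5 had a median of 0.45, with 96 above 0 and 22 higher at an unadjusted p of 0.05. Depth, background and the age range label moved with this comparison. With the total count as a covariate the differences were 0.79 for Ptger1, 0.92 for Ptgir, 0.79 for Ptgfr and 0.74 for Ptgs2. With the age range label as a covariate, C1 is in effect set against pan replicate 4 alone, the only pan sample with the older label. The differences were then 0.62, 0.54, 0.52 and 0.11. After subtraction of the background mean of each sample they were 1.68, 1.81, 1.81 and 1.47.

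Genes that neighbour the pathway were counted in the same fits. Of 8 other eicosanoid genes, which make or sense leukotrienes and hydroxylated lipids, 0 were called by limma in any comparison. Of the panel, 2.02% was called in pan, 0% in C1 and 0.403% between the agonists. At an unadjusted p of 0.05, 1 was lower in pan and 1 higher in C1, as were 10.1% and 5.24% of the panel. Between the agonists there were 0, where 13.7% of the panel was higher and 1.61% lower. The smallest p among them was that of Cysltr2, a cysteinyl leukotriene receptor, in pan (−0.89, SE 0.36, limma adjusted p = 0.336) and of Alox15, a lipoxygenase, in C1 (0.68, SE 0.15, limma adjusted p = 0.211). Cysltr2 was near background, with a mean of 10.5 normalized counts in vehicle and 6.01 in pan. Gpr44, a receptor for prostaglandin D2, averaged 14.4 ± 12.1 normalized counts in vehicle (SD, n = 3), 4.66 ± 3.62 in pan (SD, n = 4) and 9.79 ± 5.27 in C1 (SD, n = 4), and its difference was −1.48 in pan and −0.33 in C1 with limma adjusted p of 0.460 and 0.900. Its difference between the agonists was 1.15 (SE 0.54, limma adjusted p = 0.359), the smallest p of that list there. This gene too was near background.

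Of 8 genes that signal downstream of prostanoid receptors (G protein subunits, phospholipase C, protein kinase C and the cyclic AMP-regulated factor Creb1), 0 were called by limma in any comparison. Of the panel, 2.02% was called in pan, 0% in C1 and 0.403% between the agonists. At an unadjusted p of 0.05 there were also 0. There 2.42% of the panel was higher and 10.1% lower in pan, 5.24% each way in C1, and 13.7% higher and 1.61% lower between the agonists. Their median difference was −0.05 in both comparisons with vehicle and 0.04 between the agonists, against −0.20, −0.02 and 0.23 over all genes. The smallest p belonged to Gngt1 in pan (−1.24, SE 0.63, limma adjusted p = 0.475), to Prkcb in C1 (−0.46, SE 0.20, 0.452) and to Gngt1 between the agonists (0.81, SE 0.42, 0.365). Gngt1 rested on as little as 1 probe count in pan.

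Of 8 cytokine genes linked to prostaglandins, 7 were above 0 in pan, with a median of 0.21, and 7 in C1, with a median of 0.58. Of the whole panel, 75 of 248 genes were above 0 in pan and 117 in C1, with medians of −0.20 and −0.02. By limma 0 of the 8 were called, and 1 in pan, 2 in C1 and 1 between the agonists were higher at an unadjusted p of 0.05, as were 2.42%, 5.24% and 13.7% of the panel. Il1a, an epithelial alarm cytokine that induces Ptgs2, had the smallest p in pan (1.26, SE 0.42, limma adjusted p = 0.239). Areg, the growth factor amphiregulin, had it in C1 (0.74, SE 0.17, limma adjusted p = 0.211) and between the agonists (0.55, SE 0.20, limma adjusted p = 0.272).

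Markers of other cells that carry these receptors were counted because EP4 is also a receptor of macrophages. The summed level of 10 myeloid markers was 412 to 530 normalized counts in vehicle, 249 to 406 in pan and 432 to 598 in C1. It was thus lowest in pan, where 9 of 10 markers were below 0, as were 173 of all 248 genes. In C1, 8 of 10 markers were above 0, as were 117 of 248 genes. By limma 0 markers were called in either, where 2.02% of the panel was called in pan and 0% in C1. At an unadjusted p of 0.05, 1 marker was lower in each, as were 10.1% and 5.24% of the panel. Ptger4 was above vehicle in both groups. Between the agonists, 10 of 10 were higher in C1, 4 of them at an unadjusted p of 0.05, where 181 of all 248 genes were above 0 and 13.7% were higher at that p. C3ar1, the receptor for complement C3a, had the smallest p of these markers in both (−1.18, SE 0.29, limma adjusted p = 0.0955 in pan and −0.95, SE 0.32, 0.418 in C1). Trem2 was at or under 3 probe counts in every vehicle sample. The summed level of 4 T cell markers was 25.4 to 30.0 in vehicle, 16.2 to 31.7 in pan and 26.1 to 37.2 in C1, and Cd40lg was at or under 3 counts in every vehicle sample. Of the T cell and neutrophil markers 0 were called by limma, where 2.02% of the panel was called in pan, 0% in C1 and 0.403% between the agonists. At an unadjusted p of 0.05 Cd4 was lower in pan (−1.68), as was 10.1% of the panel. Cd40lg was higher in pan (1.14) and in C1 (0.93), as were 2.42% and 5.24% of the panel. Between the agonists Cd4 was 1.44 higher in C1 (SE 0.33, limma adjusted p = 0.157), where 13.7% of the panel was higher at an unadjusted p of 0.05. Cd4 averaged 11.5 normalized counts in vehicle, 3.56 in pan and 9.53 in C1. The background means were 6.85 to 11.04, 5.05 to 6.14 and 5.66 to 10.1. The neutrophil receptors Cxcr1 and Cxcr2 summed to 10.0 to 27.7, 5.80 to 9.76 and 6.88 to 17.3. The vessel gene Flt1 was at 10.0 to 25.4, 9.74 to 39.6 and 17.0 to 35.8, the mesenchyme gene Twist2 at 10.0 to 16.4, 9.74 to 20.3 and 12.4 to 29.8, and the muscle gene Myl2 at 4.004 to 16.1, 2.90 to 19.5 and 6.88 to 13.4. The T cell and neutrophil genes and Myl2 lay near background, so their sums and differences are weakly measured. The part of other cells in the Ptger4 levels was not tested.

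Likeness across the 11 samples was computed only against the 131 panel genes with a mean log2 level of at least 5. Of these, the genes whose log2 levels ran most like those of Ptger4 were Alox15 (Pearson r 0.74), Tnf (0.73) and Cebpb (0.71). The median over the genes compared was 0.04. The samples share groups, scaling and depth, so these values describe the table. For Pla2g4a the closest were Mx1 (0.92), Map2k6 (0.92) and Rac1 (0.90), and for Ptgs1 Tlr5 (0.81), Elk1 (0.79) and Bcl6 (0.76). Ptger3 had weaker neighbours, with Limk1 (0.49), C3 (0.49) and Tgfb1 (0.47), and of the genes compared Ptger4 ran least like it (−0.60).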

How the data were processed

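RNA labelled as from corneal epithelium was counted with NanoString probes. The authors used ROSALIND to scale each sample by its housekeeping probes (geometric mean) and deposited 2 tables of log2 normalized counts (pan with vehicle, C1 with vehicle), replicates not pooled. The tables also hold the authors' mean level, fold change and p-values, which were not used. Vehicle values were identical in both tables (largest difference 0), and 0 of 6 housekeeping genes were in them. The gene IDs matched RefSeq (GRCm38.p6) for 247 of 248 genes. Per sample, normalized values were multiples of a single step (tolerance 0.01), which gave the probe counts; 3 counts were the limit that a count of 0 allows. Replicates differed beyond counting noise (chi-square per degree of freedom 2.90 to 53.2).

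Differences were fitted on the deposited log2 values of all 248 genes with limma 3.58.1 (lmFit, eBayes; R 4.3.3), without covariates, filter or pseudocount, using the samples of each comparison, and adjusted by Benjamini-Hochberg. Permutation tests enumerated all splits (35, 70 or 165) with numpy 2.4.6, two-sided p being 2 times the smaller tail (Python 3.11.15, pandas 2.3.3). Counting intervals used scipy 1.17.1 and figures matplotlib 3.10.9. The members and lists were chosen with earlier results of these data known. All 10 members were named, and of each related list the called genes or, with none called, the one with the smallest p, and Gpr44 always. Alternatives were median centring, other priors, voom weights, a minimum mean log2 level of 5, a floor of 20, a pseudocount of 10, background subtraction, all groups in one fit, covariates for total count or age range label, the replicate block, the samples labelled 2 to 3 months alone and leaving out each sample. The ratio of Ptger4 to the enzymes was chosen after seeing the data.

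Tested on 20 simulated tables per comparison of 248 genes, the fit recovered 95.0% (pan and vehicle), 95.1% (C1 and vehicle), 96.5% (both agonist groups compared) and 96.2% (agonists pooled and vehicle) of changes of 2 on the log2 scale among genes with a mean log2 level of at least 5, and 52.1%, 65.7%, 74.9% and 77.8% of changes of 1. False calls were 4.53%, 7.22%, 6.73% and 7.69%. Each simulated table changed many genes at once and used the same spread per gene in all groups. In the real comparisons at most 2.02% of the panel was called, so these rates may be too high for a single gene here.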

Additional observations from a re-analysis of the deposited data

Results flagged for a closer look

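Every pan sample of Ptgfr (5.8 to 19.5 normalized counts) was below the mean log2 level of vehicle and every C1 sample (24.8 to 27.3) was above it. Neither difference from vehicle passed the test: it was −1.03 in pan (limma adjusted p = 0.461) and 0.09 in C1 (limma adjusted p = 0.919), where all C1 values lay within the vehicle range of 18.0 to 42.8 and the sign turned under some alternatives. The difference of pan from vehicle ran from −1.27 to −0.62 with 1 sample left out, and was −0.37 with a floor of 20. The difference, C1 against pan, was 1.12 on the log2 scale, with a limma adjusted p of 0.256 over the panel and an exact permutation p of 0.0286. Of the 20 groups of 4 samples tested for one far from the others, over the 10 genes in pan and C1, 0 had one, where chance gives about 1.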

How the results depend on the processing

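Of 588 values recomputed for 31 log2 fold changes, 545 kept direction and side of the threshold, 37 changed sign and 6 passed the threshold. Of the fold changes, 18 never changed sign. These counts overstate how far direction was tested. Other priors, the minimum mean level and all groups in one fit leave the fold change itself unaltered and can move only its p-value. In pan against vehicle, the age range label, the replicate block, the younger label alone and leaving out the older-labelled pan sample gave the same fold change. Ptger4 was 0.63 to 0.95 in pan and 0.62 to 1.04 in C1 against vehicle under the other settings, and 0.65 to 0.89 and 0.76 to 0.93 with one sample left out. The count of members called went from 0 to 1, always Ptger4, for C1 against vehicle among genes with a mean log2 level of at least 5 (0.85, adjusted p 0.0372 by limma), and for both agonists under median centring (0.80, 0.0430), a pseudocount of 10 (0.68, 0.0434) and background subtraction (0.996, 0.0228). Leaving out one sample, that count ranged from 0 to 1, being 1 without pan replicate 3 (0.87, 0.0396), and it stayed at 0 for the other comparisons. For C1 against pan it was 1 with a floor of 20, where all pan samples were at the floor (Ptgfr 0.37, limma adjusted p 0.00395). The cause of these shifts was not tested.

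Reversals in pan against vehicle were Ptger2 (0.0039 with the age range label, the replicate block or the 2 to 3 months samples alone, and −1.12 to 0.56 with one sample left out) and Ptgs1 (−0.32 to 0.049 with one left out). In C1 against vehicle, the total count and the age range label as covariates gave Ptgs1 −0.24 and −0.65, Ptgs2 −0.17 and −1.04, Ptger1 −0.052 and −0.33, and Ptgfr −0.32 and −0.70, and background subtraction gave Ptgir 0.10. With one sample left out, Ptgs1 was −0.0028 to 0.19, Ptger2 −1.55 to 0.13, Ptgfr −0.12 to 0.50 and Ptgir −0.38 to 0.19. In C1 against pan, median centring gave Pla2g4a −0.0043 and Ptger4 −0.025. There the total count gave Pla2g4a −0.0045, Ptgs1 −0.050, Ptger4 −0.041 and Tbxa2r −0.014. The age range label, which sets C1 against pan replicate 4 alone, gave these genes −0.033, −0.33, −0.064 and −0.043, with Ptger3 at 0.12. The ratio to the enzymes gave Ptger4 −0.064. With one sample left out, Pla2g4a was −0.014 to 0.23 and Ptger4 −0.034 to 0.20. A floor of 20 gave no value for Ptgs2 and Tbxa2r in any comparison nor for Ptger2 between the agonists, and background subtraction gave none for Tbxa2r between the agonists, since all samples then lay at the floor.

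Samples with the same replicate number correlated from −0.05 to 0.57 in their deviations over 131 genes, so the numbers were not taken as pairs. With the replicate block Ptger4 was 0.68 in pan (limma adjusted p 0.372), 0.77 in C1 (0.481), 0.73 in both agonists (0.208) and 0.11 between them (0.827), and 0 members were called. Ptgs2 rested on as little as 1 probe count in pan, and changes of 1 on the log2 scale were recovered for 52.1% of well measured genes in simulated data for pan against vehicle.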
